A study of Mus musculus with 4 samples.

Results

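Enzyme genes of serine, asparagine, cysteine and one-carbon metabolism were followed in the epidermis of newborn mice that lacked Skiv2l in keratinocytes. The 10 genes were Phgdh, Psat1, Psph, Shmt1, Shmt2, Mthfd2, Asns, Cth, Cbs and Bcat1. They were chosen by gene name, with earlier results of these data known. Each name matched 1 of the 54752 gene identifiers listed in every library. All 10 passed the filter on low values and belonged to the 13609 protein-coding genes that were tested. Bcat1 passed that filter only through the knockout libraries, so its direction was fixed by its being tested.

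RNA was compared between 2 Skiv2l fl/fl K14-Cre pups and 2 Skiv2l ctl pups, all C57BL/6 and at postnatal day 0. SKIV2L is the helicase of the SKI complex, which feeds RNA to the cytoplasmic exosome. In the fl/fl K14-Cre pups both floxed alleles are recombined by a Cre that the keratin 14 promoter drives constitutively, so the deletion is directed to keratinocytes and the other cells of the skin keep the gene. The control name covers the genotypes fl/fl, fl/+ and fl/+ K14-Cre, so every control pup carries a floxed allele. Which genotype each control pup had is not given, so a control pup may also carry Cre and have its floxed allele recombined in keratinocytes. Whole epidermis was sequenced, in which fewer cells of a type and less RNA per cell cannot be told apart.

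Serine is made from the glycolytic intermediate 3-phosphoglycerate by PHGDH, PSAT1 and PSPH in sequence. SHMT1 in the cytosol and SHMT2 in mitochondria split serine into glycine and a one-carbon unit carried by folate, and MTHFD2 oxidizes that unit inside mitochondria. Serine also meets homocysteine in the transsulfuration route, where CBS makes cystathionine and CTH cleaves it to cysteine. ASNS makes asparagine from aspartate, and BCAT1 moves the amino group of leucine, isoleucine and valine onto 2-oxoglutarate in the cytosol. Several of these genes are textbook targets of the transcription factor ATF4, which cells use when amino acids run short.

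Levels are the deposited FPKM, which scale a gene's fragments by transcript length and by the size of the library. A gene was called changed where limma on log2(FPKM + 1) gave a Benjamini-Hochberg adjusted p under 0.05 over all tested genes. In fl/fl K14-Cre epidermis 5 of the 10 enzymes were called higher (Bcat1, Cth, Mthfd2, Asns and Shmt2), against 8.99% of all tested genes. A further 3 were called lower (Cbs, Phgdh and Shmt1), against 25.4% of all tested genes, and 2 were not called (Psat1 and Psph). Since these enzymes and the lists below were chosen with earlier results of these data known, the shares are descriptions and test nothing. The median log2 fold change was 0.47 over the 10 enzymes and -0.20 over all tested genes. Because that overall shift exceeds 0.1, all changes were also read after scaling each library to the same median FPKM. Median scaling called 13.9% of all genes higher and 11.9% lower, and among the enzymes it kept 5 higher and left only Phgdh lower. Without ctl replicate 1 the enzymes were called 4 higher and 1 lower, and without ctl replicate 2 they were called 3 higher and 1 lower. Calls over all genes also fell in these fits, to 4.3% higher and 7.68% lower without ctl replicate 1 and to 4.04% and 5.99% without ctl replicate 2.

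Both fl/fl K14-Cre libraries lay above both ctl libraries for 5 of the 10 enzymes, against 18.2% of tested genes, and below both for 4, against 55.3% of tested genes. Only Psph overlapped. With 2 pups against 2, an exact two-sided permutation test of a single gene cannot go below p = 0.3333, so the calls rest on the limma fit across all genes.

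**Figure D1:**
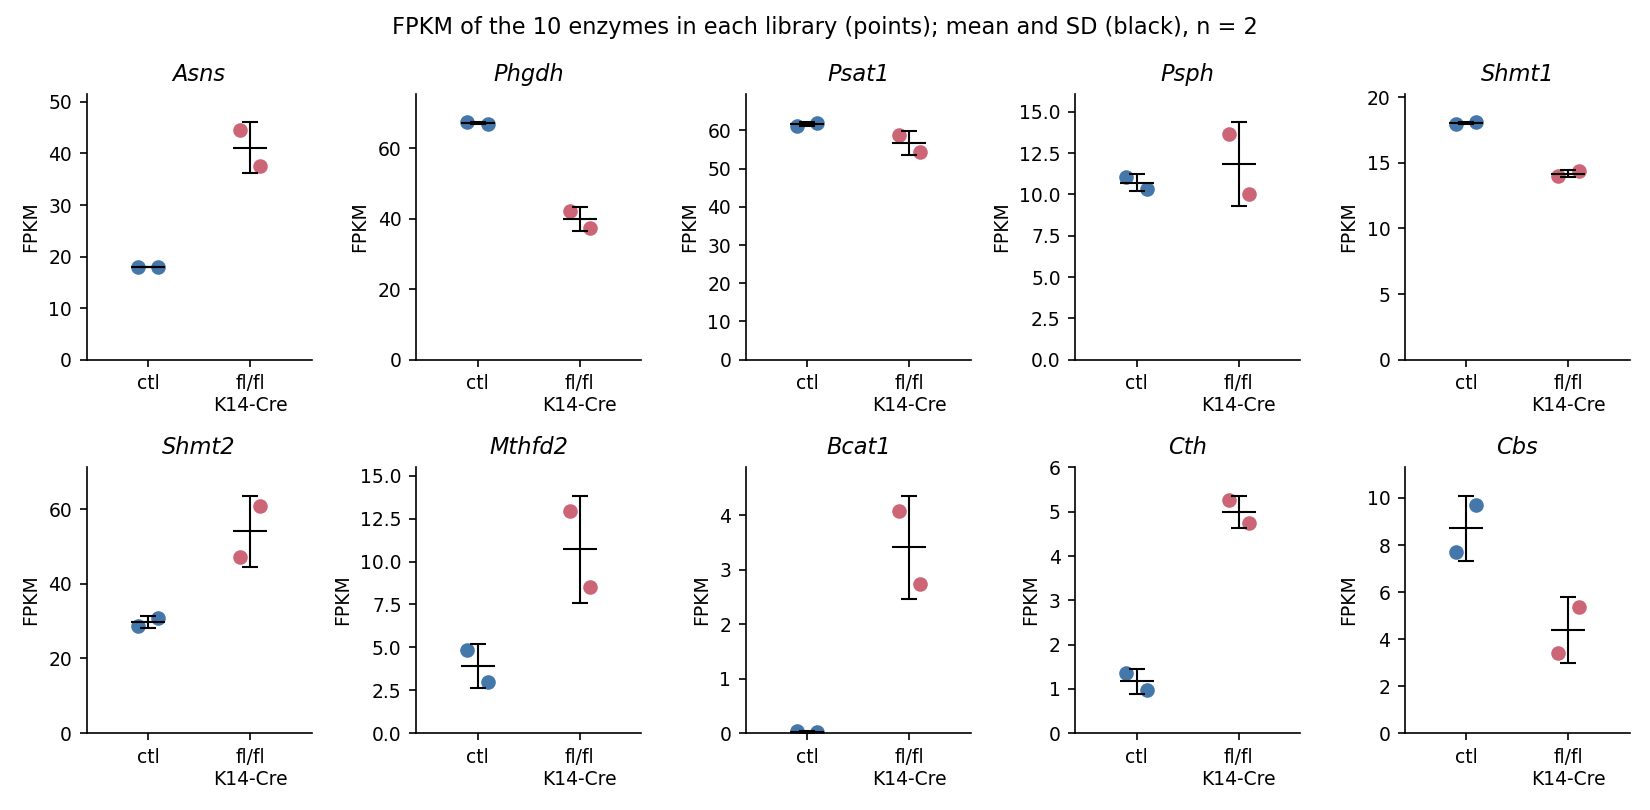
FPKM of each enzyme (y axis, from 0) in the 2 ctl and the 2 fl/fl K14-Cre libraries, with each library as a point and the group mean and SD in black (n = 2). Bcat1 went from under 0.1 to between 2.74 and 4.09 FPKM, while Psat1 stayed between 54.4 and 62.0 FPKM in all 4 libraries.

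**Figure D2:**
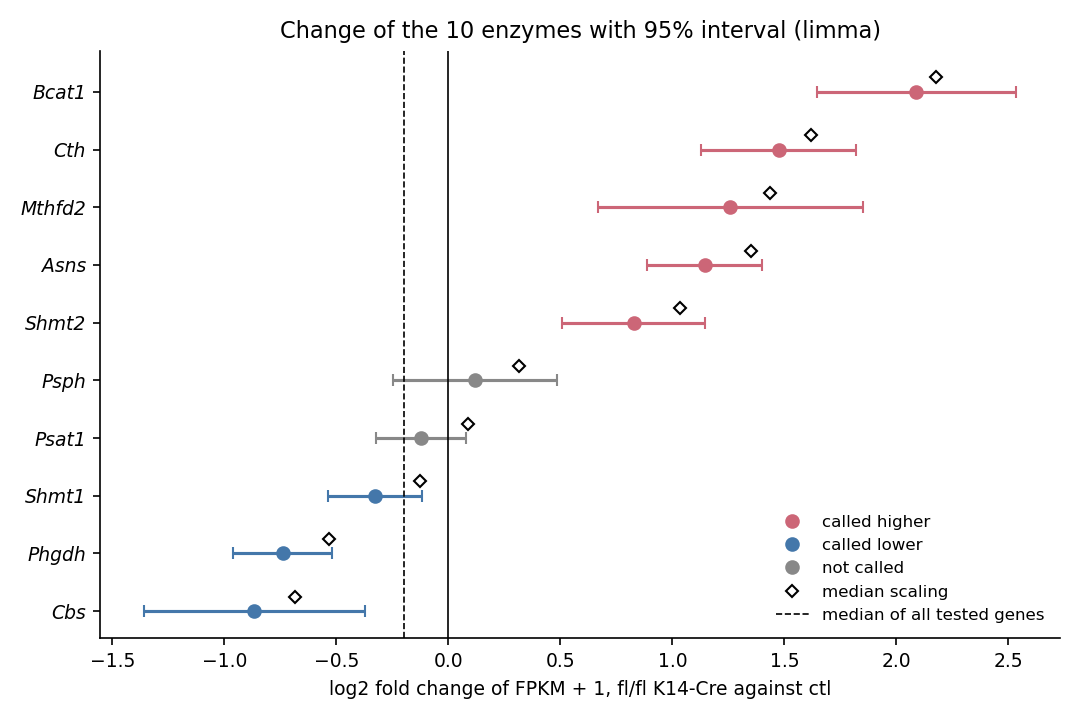
Log2 fold change of FPKM + 1 with its 95% interval (x axis) for each enzyme, with diamonds for the value after median scaling and a dashed line at the median of all tested genes, -0.20. The intervals of Psph and Psat1 cross 0, and the diamond of Psat1 lies on the other side of 0 from its point.

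Skiv2l itself was measured at 19.3 and 19.1 FPKM in the ctl libraries and at 10.8 and 8.55 FPKM in the fl/fl K14-Cre libraries. Both knockout values were below both controls, with a log2 fold change of -0.92 (SE 0.12, adjusted p = 0.00368 in limma). Depth was close between libraries, at 5.84 to 6.27 aligned gigabases. The library of fl/fl K14-Cre replicate 2 had 16138 genes above 0.5 FPKM, against 17384 to 17761 in the other 3, and without it the enzymes were still called 5 higher and 3 lower.

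Keratinocyte markers dominated every library, with a summed FPKM of 27890 to 31910 over 8 genes, so the tissue matched its label. Within that list Krt14 and Dsg3, genes of the basal and lower layers, were called higher and Krt1 and Lor, genes of the upper layers, lower. Krt5 and Trp63, also basal, and Krt10 and Flg, also of the upper layers, were not called. Median scaling kept only Lor lower. TPM and quantile normalization each called 4 of the 8 lower, or 50%, against 30.5% and 14.1% of all tested genes. The 6 fibroblast markers summed to 61.4 and 69.0 FPKM in ctl and 22.0 and 25.04 in fl/fl K14-Cre, with Dcn carrying most of the sum. Of 5 tested, Dcn and Col1a2 were called lower, or 40% against 25.4% of all tested genes. Col1a1, Col3a1 and Pdgfra were not called, and Pdgfra was higher in both knockouts, at 0.44 on the log2 scale. With median scaling 1 was called higher and 1 lower, or 20% each against 13.9% and 11.9%. The 7 leukocyte markers summed to 27.8 and 33.5 FPKM in ctl and 14.9 and 13.6 in fl/fl K14-Cre, with Ly6g at 0 in every library. Of 5 tested, 3 were called lower, or 60% against 25.4% of all tested genes, and with median scaling 60% against 11.9%. Itgam and Cd3e were not called, with log2 fold changes of -0.05 and -0.17. The 4 erythroid markers summed to 80.6 and 74.6 FPKM in ctl and 37.5 and 47.7 in fl/fl K14-Cre. The 5 endothelial markers summed to at most 0.750 FPKM with Emcn at 0 in every library, and the 5 muscle markers to at most 3.03 FPKM. The 5 melanocyte markers summed to 47.5 to 63.5 FPKM, with Tyrp1 called higher. Of 8 proliferation markers 6 were called lower and 0 higher, or 75% against 25.4% of all tested genes, and with median scaling 3 were lower, or 37.5% against 11.9%. What part these shifts have in the enzyme values was not tested.

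The serine synthesis genes did not move together. Phgdh, whose product commits 3-phosphoglycerate to serine, was called lower, while Psat1 and Psph, which complete the route, were not called.

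Phgdh (ENSMUSG00000053398.11, GRCm38 chromosome 3, 98313170 to 98339990, minus strand) was measured at 67.4 and 67.0 FPKM in ctl and at 42.3 and 37.5 FPKM in fl/fl K14-Cre. Both controls agreed within 1 FPKM, and both knockouts were below them. The level in fl/fl K14-Cre was 0.594 times that in ctl, a log2 fold change of -0.74 (SE 0.091, adjusted p = 0.00273 in limma). The call held after median scaling, with a log2 fold change of -0.53 (adjusted p = 0.00731). Of the 75-base stretches in Phgdh transcripts, 35.8% also occur in 13 other genes, led by Gm7901 and Gm9347, and how shared reads were assigned is not given in the sources used here. Those 13 genes summed to 2.78 and 2.89 FPKM in ctl and 1.54 and 1.57 FPKM in fl/fl K14-Cre.

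Psat1 (ENSMUSG00000024640.9, chromosome 19, 15904678 to 15947337, minus strand) was measured at 61.3 and 62.0 FPKM in ctl and at 58.9 and 54.4 FPKM in fl/fl K14-Cre. The knockout libraries were both slightly lower, and the difference did not pass the test. Its log2 fold change was -0.12 with a 95% interval from -0.32 to 0.08 (adjusted p = 0.283), and after median scaling it was 0.09 (adjusted p = 0.443).

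Psph (ENSMUSG00000029446.14, chromosome 5, 129765558 to 129787449, minus strand) was measured at 11.1 and 10.3 FPKM in ctl and at 13.6 and 10.03 FPKM in fl/fl K14-Cre. One knockout library was above and the other below both controls. Its log2 fold change was 0.12 with a 95% interval from -0.25 to 0.48 (adjusted p = 0.554), and without fl/fl K14-Cre replicate 1 it was -0.08. Psph exons overlap those of Cct6a on the other strand, which was at 69.9 to 85.0 FPKM and shares 8.07% of the 75-base stretches. Without knowledge of strand in the counting, reads from that overlap cannot be told apart.

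The paired serine hydroxymethyltransferases changed in opposite directions. Shmt2, the mitochondrial enzyme, was called higher, and Shmt1, the cytosolic enzyme, was called lower by a smaller amount that median scaling brought below the threshold.

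Shmt2 (ENSMUSG00000025403.5, chromosome 10, 127517123 to 127522444, minus strand) was measured at 28.7 and 31.0 FPKM in ctl and at 47.3 and 60.8 FPKM in fl/fl K14-Cre. Its exons overlap those of Ndufa4l2 on the other strand, which was at 70.2 to 123.6 FPKM and shares no 75-base stretch with it. Whether the counting used strand is not known. For Shmt2 both knockouts were well above both controls and differed more from each other than the controls did. The level was 1.81 times that in ctl, a log2 fold change of 0.83 (SE 0.13, adjusted p = 0.00627). Leaving out ctl replicate 1 or ctl replicate 2 kept the rise, at 0.77 and 0.88, with adjusted p of 0.0607 and 0.0575.

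Shmt1 (ENSMUSG00000020534.14, chromosome 11, 60788104 to 60811718, minus strand) was measured at 18.0 and 18.1 FPKM in ctl and at 13.98 and 14.35 FPKM in fl/fl K14-Cre. Its exons overlap those of Smcr8 on the other strand, which was at 7.27 to 9.37 FPKM and shares 2.7% of the 75-base stretches. Replicates of Shmt1 differed by less than 1 FPKM and the groups did not overlap. The log2 fold change was -0.33 (SE 0.086, adjusted p = 0.0314), which is 0.13 below the median of all genes. After median scaling it was -0.13 (adjusted p = 0.325), and without ctl replicate 1, ctl replicate 2 or fl/fl K14-Cre replicate 1 the adjusted p was 0.159, 0.165 and 0.0576.

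In ctl epidermis the Shmt2 to Shmt1 ratio of FPKM was 1.597 and 1.712, and in fl/fl K14-Cre epidermis it was 3.38 and 4.24. A ratio within a library does not depend on how libraries are scaled. It shows that the mitochondrial transcript gained on the cytosolic one in both knockout pups.

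At the next step Mthfd2 was higher while its relatives in mitochondria and in the cytosol were both lower, so the split there was not by compartment. Mthfd2 (ENSMUSG00000005667.8, chromosome 6, 83305691 to 83325908, minus strand), which is high in embryos and tumours and low in most adult tissues, was measured at 4.83 and 2.985 FPKM in ctl and at 12.9 and 8.52 FPKM in fl/fl K14-Cre. The lowest knockout value was 1.77 times the highest control value. The log2 fold change was 1.26 (SE 0.24, adjusted p = 0.0121). It was 0.98 with an adjusted p of 0.0896 without ctl replicate 2, and the adjusted p was 0.0523 where no filter on low values was set.

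Its mitochondrial relative Mthfd2l was measured at 5.46 and 5.22 FPKM in ctl and at 3.56 and 3.54 FPKM in fl/fl K14-Cre. It was called lower, at -0.48 (SE 0.11, adjusted p = 0.0197), a call that median scaling removed (-0.31, adjusted p = 0.0896). Mthfd1, the cytosolic enzyme that carries the corresponding activities on a single protein, was at 16.01 and 16.53 FPKM in ctl and 11.02 and 10.98 FPKM in the knockouts, a log2 fold change of -0.53 (SE 0.089, adjusted p = 0.00791). The Mthfd2 to Mthfd2l ratio was 0.885 and 0.571 in ctl and 3.64 and 2.41 in fl/fl K14-Cre, and the Mthfd2 to Mthfd1 ratio was 0.301 and 0.181 in ctl and 1.17 and 0.777 in fl/fl K14-Cre. Mthfd2 was therefore the lesser transcript of the pair with Mthfd2l in both control pups and the greater one in both knockout pups.

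**Figure D3:**
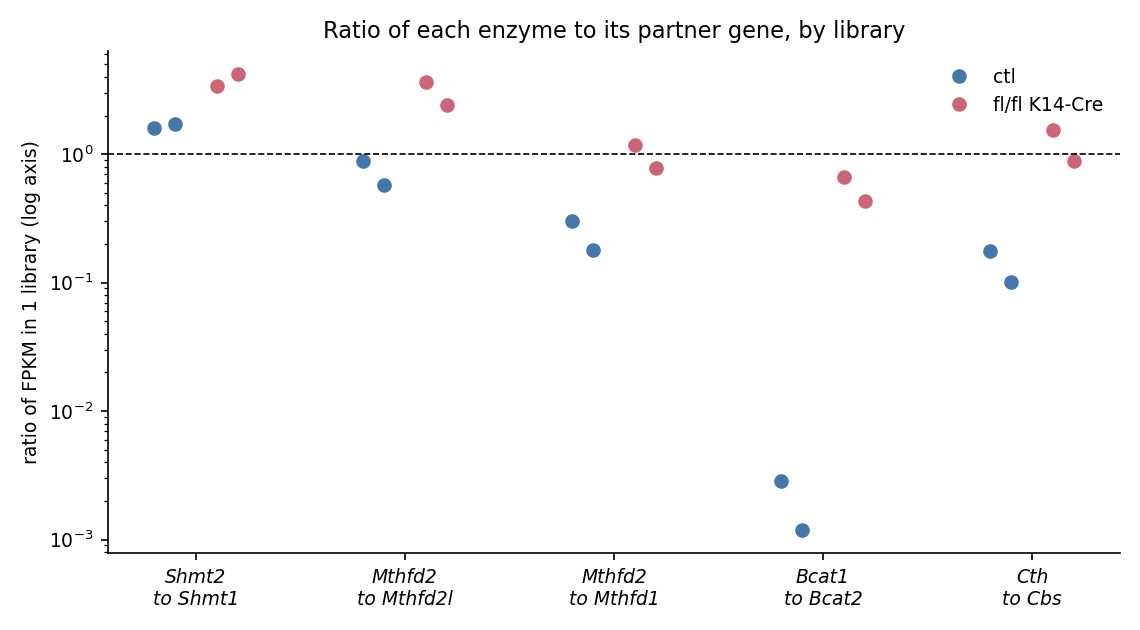
Ratio of FPKM (y axis, log scale) of each enzyme to its partner gene in each library, ctl in blue and fl/fl K14-Cre in red, with a dashed line at a ratio of 1. In all 5 pairs both knockout ratios lie above both control ratios. Every pair sets an enzyme called higher over a gene called lower, so this follows from those calls and adds no evidence. Mthfd2 is used with both Mthfd2l and Mthfd1.

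The wider folate list held 18 genes, of which 15 were tested. Of these 4 were called higher and 5 lower, or 26.7% and 33.3%, against 8.99% and 25.4% of all tested genes. The median of their log2 fold changes was -0.27 against -0.20 for all genes, and median scaling left 4 higher and 3 lower, the latter 20% against 11.9% of all genes. The largest rises were Aldh1l2, the mitochondrial 10-formyltetrahydrofolate dehydrogenase, and Mthfd1l, the mitochondrial formate-producing synthetase.

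Aldh1l2 was at 1.66 and 1.43 FPKM in ctl and 7.004 and 8.042 FPKM in fl/fl K14-Cre, a log2 fold change of 1.74 (SE 0.13, adjusted p = 0.00051). Of its 75-base stretches 12.8% are shared with the overlapping gene D10Wsu102e, which stayed between 0.477 and 0.544 FPKM. Mthfd1l was at 1.92 and 2.17 FPKM in ctl and 7.25 and 7.32 FPKM in fl/fl K14-Cre, a log2 fold change of 1.45 (adjusted p = 0.000672). Aldh1l1, the cytosolic relative of Aldh1l2, was called higher too, from 1.26 and 1.04 to 2.83 and 3.01 FPKM (log2 fold change 0.87, adjusted p = 0.00516). Among the falls, Slc46a1, the proton-coupled folate transporter, was at 13.0 and 13.8 FPKM in ctl and 5.98 and 6.70 FPKM in fl/fl K14-Cre, a log2 fold change of -0.97 (adjusted p = 0.00172). Ggh, a lysosomal hydrolase of folate polyglutamates, had a log2 fold change of -0.53 (adjusted p = 0.00832). Tyms, which spends folate on thymidylate for DNA synthesis, had one of -0.73 (adjusted p = 0.0305), a call that median scaling removed (adjusted p = 0.0797). Mitochondrial genes stood on both sides, since Mthfd2l fell and the mitochondrial folate carrier Slc25a32 was not called at -0.27 (adjusted p = 0.177).

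Asns (ENSMUSG00000029752.12, chromosome 6, 7675169 to 7693254, minus strand) was called higher. It was measured at 18.0 FPKM in both ctl libraries and at 44.6 and 37.6 FPKM in fl/fl K14-Cre. The lowest knockout value was 2.08 times the highest control value. The log2 fold change was 1.14 (SE 0.11, 95% interval 0.89 to 1.40, adjusted p = 0.0011), it stayed between 1.02 and 1.35 over 15 alternative settings, and every one of them kept the call.

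The promoter of Asns is shown because it holds the amino acid response element that made this gene a standard reporter of amino acid shortage. The 250 bases before the RefSeq start site are printed 5′ to 3′ on the minus strand of GRCm38.p6, chr6:7693210-7693459, with a match to the C/EBP-ATF composite motif TGATGNAA in capitals.
Asns: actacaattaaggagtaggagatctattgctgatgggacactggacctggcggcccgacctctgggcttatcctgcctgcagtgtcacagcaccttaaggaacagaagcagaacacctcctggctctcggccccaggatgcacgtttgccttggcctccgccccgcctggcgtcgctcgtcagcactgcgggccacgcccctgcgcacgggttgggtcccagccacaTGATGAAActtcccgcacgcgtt

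The match begins 23 bases before the RefSeq start site. The gene as listed in the files begins further upstream, at 7693254, so there the match lies within the annotated gene. The motif was searched on both strands of 300-base windows, 250 before to 50 after each start site, and 3.97% of the 32851 windows in the RefSeq table hold it. Windows were present for 9 of the 10 enzymes, with 2 each for Bcat1 and Psat1, and of these 11 windows only that of Asns held the motif. Cth had none in the table. The letters were therefore absent from the windows of Bcat1, Shmt2 and Mthfd2, which rose, as well as from those of Phgdh, Shmt1 and Cbs, which fell.

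Genes of aspartate, glutamate and proline metabolism, which supply or compete for the substrates of ASNS, held 4 calls higher and 2 lower among 16 tested genes. These are 25% and 12.5%, against 8.99% and 25.4% of all tested genes. The median of their log2 fold changes was 0.20, and median scaling gave 8 and 2, or 50% and 12.5% against 13.9% and 11.9%. Got1 and Got2, the cytosolic and mitochondrial aspartate aminotransferases, were both higher. Got1 went from 5.99 and 5.21 to 9.622 and 10.04 FPKM (log2 fold change 0.72, adjusted p = 0.00557) and Got2 from 40.4 and 43.1 to 70.2 and 63.5 FPKM (0.67, adjusted p = 0.00373). Aldh18a1, the first enzyme of proline synthesis, had a log2 fold change of 0.40 (adjusted p = 0.0353), a call lost with TPM (adjusted p = 0.0534). The largest fall was that of Gpt, a cytosolic alanine aminotransferase, from 37.0 and 36.2 to 9.05 and 10.4 FPKM (-1.81, adjusted p = 0.000208). Prodh, which breaks proline down, fell by 0.75 on the log2 scale (adjusted p = 0.00276).

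Cth and Cbs, the successive enzymes of transsulfuration, moved in opposite directions. Cth (ENSMUSG00000028179.12, chromosome 3, 157894248 to 157925077, minus strand) was measured at 1.36 and 0.974 FPKM in ctl and at 5.26 and 4.75 FPKM in fl/fl K14-Cre. Every knockout value was at least 3.48 times every control value. The log2 fold change was 1.47 (SE 0.14, adjusted p = 0.00123), and all 15 alternative settings kept the call.

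Cbs (ENSMUSG00000024039.14, chromosome 17, 31612623 to 31637199, minus strand, as the files give it) was measured at 7.71 and 9.695 FPKM in ctl and at 3.39 and 5.38 FPKM in fl/fl K14-Cre. The groups did not overlap, though pups of 1 genotype differed by about 2 FPKM. The log2 fold change was -0.87 (SE 0.20, adjusted p = 0.0218). The fall kept its sign after median scaling (-0.68, adjusted p = 0.0577) and without either ctl replicate (-1.01 and -0.72, adjusted p = 0.0754 and 0.153), but the call was lost each time.

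The Cth to Cbs ratio of FPKM was 0.177 and 0.101 in ctl and 1.55 and 0.883 in fl/fl K14-Cre. Cbs was thus the greater transcript in both control pups. In the knockouts Cth was the greater in replicate 1 and Cbs in replicate 2.

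On the methionine side, 1 of 11 tested genes was called higher and 2 lower, and their log2 fold changes had a median of -0.05. The shares, 9.09% and 18.2%, lay at and below the 8.99% and 25.4% of all tested genes. The rise was that of Ahcy, which releases homocysteine from S-adenosylhomocysteine, from 15.6 and 18.0 to 28.6 and 33.0 FPKM (log2 fold change 0.84, adjusted p = 0.00371). Apip and Mat2b, of methionine salvage and of S-adenosylmethionine synthesis, were lower at -0.58 and -0.57 (adjusted p = 0.0303 and 0.0213), and neither call held after median scaling (adjusted p = 0.0673 and 0.0748). With median scaling the list held 2 calls higher and 0 lower, or 18.2% and 0% against 13.9% and 11.9% of all genes. Mat1a, Bhmt and Bhmt2, known as liver genes, were at 0 in every library.

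Among 13 tested genes of cysteine use and glutathione synthesis, 2 were called higher and 4 lower, with or without median scaling. The share lower, 30.8%, stood against 25.4% of all tested genes without it and 11.9% with it, and the share higher, 15.4%, against 8.99% and 13.9%. The rises were Sqor and Ethe1, which oxidize sulfide in mitochondria. Sqor, like Bcat1, passed the filter on low values only through the fl/fl K14-Cre libraries. Sqor was at 0.0763 and 0.0840 FPKM in ctl and 1.996 and 1.26 FPKM in fl/fl K14-Cre (log2 fold change 1.27, adjusted p = 0.00428), and Ethe1 went from 4.30 and 3.52 to 7.35 and 6.92 FPKM (0.73, adjusted p = 0.00805). The falls were led by Ggct, a gamma-glutamylcyclotransferase, at -0.95 (adjusted p = 0.0124), Tst at -0.79 (adjusted p = 0.00765) and Mpst at -0.70 (adjusted p = 0.00288), the last pair being sulfurtransferases. Gclc, Gclm and Gss, which build glutathione, were not called, with log2 fold changes of 0.33, 0.12 and -0.17.

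Bcat1 (ENSMUSG00000030268.17, chromosome 6, 144993835 to 145076184, minus strand) had the largest log2 fold change of the 10 enzymes. It was measured at 0.0321 and 0.0155 FPKM in ctl and at 4.09 and 2.74 FPKM in fl/fl K14-Cre. The transcript was near the floor in both controls and plain in both knockouts. Bcat1 passed the filter of 0.5 FPKM only through the knockouts, so at its control levels only a rise could have been tested. With no filter on low values its adjusted p was 0.011 in limma. The log2 fold change of FPKM + 1 was 2.09 (SE 0.18, adjusted p = 0.000911). With a pseudocount of 0.1 it was 4.802, and the ratio of the mean FPKM was 143, a size that rests on the small control values.

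The files also give coverage, the mean read depth over a gene. Coverage of Bcat1 was 0.121 and 0.0603 in ctl and 5.17 and 3.33 in fl/fl K14-Cre, and per aligned gigabase its mean in fl/fl K14-Cre was 49.04 times that in ctl. A fit on log2(coverage per gigabase + 1), added after the data were seen, gave a log2 fold change of 0.76 (adjusted p = 0.0112 in limma). Coverage per gigabase was at most 0.884 in any library, so the added 1 shrinks this fold change.

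In genes with 1 annotated transcript, coverage divided by FPKM took 1 value per library, within 1% for 98.6% of the values. Relative to that value, the Bcat1 ratio was 0.619 in both ctl libraries and 0.216 and 0.205 in fl/fl K14-Cre. The other 9 enzymes kept nearly the same ratio in both genotypes, with log2 shifts of at most 0.13 in size. The shift of Bcat1 was -1.55, and 0.0444% of 13502 tested genes with a value in every library had one as large.

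**Figure D4:**
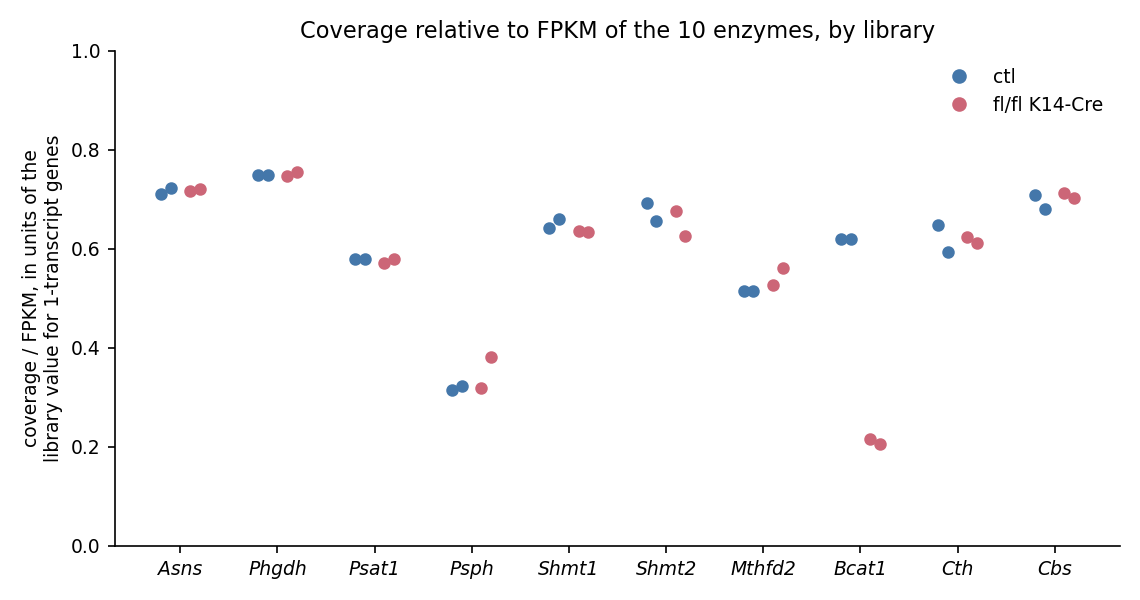
Coverage divided by FPKM (y axis, in units of the value for genes with 1 annotated transcript) for each enzyme and library, ctl in blue and fl/fl K14-Cre in red. Bcat1 is the one enzyme whose knockout points, 0.216 and 0.205, lie far from its control points at 0.619.

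GENCODE M21 lists 10 Bcat1 transcripts over 9322 exonic bases. The ratio multiplied by that length is 5767 and 5768 bases in ctl and 2017 and 1914 bases in fl/fl K14-Cre. The longest annotated transcript has 7833 bases and starts at 145048812, while transcripts of 1642 and 2556 bases start upstream at 145076184. The control values rest on about 1128 and 562 aligned bases over the whole gene, and the files give no value per transcript, so use of the start sites was not measured.

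Both start sites have a RefSeq promoter window, and the 100 bases before each RefSeq start are printed because transcripts of different length begin at or near them. They are on the minus strand of GRCm38.p6, at chr6:145076158-145076257 for the upstream start and chr6:145048813-145048912 for the internal start, with no part in capitals since neither window holds the motif searched.
Bcat1 upstream start: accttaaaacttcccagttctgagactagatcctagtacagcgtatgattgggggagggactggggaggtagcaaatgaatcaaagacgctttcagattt
Bcat1 internal start: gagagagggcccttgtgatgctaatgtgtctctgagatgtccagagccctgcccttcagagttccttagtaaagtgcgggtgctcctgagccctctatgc

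The GENCODE start at 145076184 lies inside the stretch printed for the upstream start, so the last bases of that stretch belong to the transcripts in that annotation. The windows differ in composition, with 41.0% of bases G or C around the upstream start and 58.7% around the internal start.

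Bcat2, the mitochondrial aminotransferase for the same amino acids, was measured at 11.3 and 13.2 FPKM in ctl and at 6.11 and 6.28 FPKM in fl/fl K14-Cre. Both knockouts were below both controls, with a log2 fold change of -0.88 (SE 0.11, adjusted p = 0.00301). The Bcat1 to Bcat2 ratio was 0.00284 and 0.00118 in ctl and 0.669 and 0.436 in fl/fl K14-Cre, so Bcat2 was still the more abundant transcript.

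Of 15 tested genes of branched-chain amino acid breakdown, 9 were called lower and 0 higher, or 60% lower against 25.4% of all tested genes. Their log2 fold changes had a median of -0.49, and median scaling left 6 lower and 0 higher, or 40% lower against 11.9% of all genes. Besides Bcat2 the largest falls were Ivd, the isovaleryl-CoA dehydrogenase of leucine breakdown, and Bckdhb, a subunit of the branched-chain ketoacid dehydrogenase. Ivd was at 18.0 and 17.2 FPKM in ctl and 10.3 and 8.02 FPKM in fl/fl K14-Cre (-0.88, adjusted p = 0.00491). Bckdhb was at 9.04 and 9.61 FPKM in ctl and 5.92 and 4.95 FPKM in fl/fl K14-Cre (-0.69, adjusted p = 0.0083). The other subunit genes Bckdha and Dbt were not called, at -0.21 and -0.10.

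Genes that use glycine and serine were mixed. Of 15 tested, 3 were called higher and 3 lower, around a median of -0.04 on the log2 scale. That is 20% each way, against 8.99% and 25.4% of all tested genes, and median scaling gave 4 and 2, or 26.7% and 13.3% against 13.9% and 11.9%. Gldc, the decarboxylase of the glycine cleavage system, was at 4.89 and 4.33 FPKM in ctl and 1.13 and 0.787 FPKM in fl/fl K14-Cre (-1.52, adjusted p = 0.00122). Amt, Gcsh and Dld, the other components of that system, were not called, with log2 fold changes of -0.04, 0.03 and -0.23.

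Tdh and Gcat, successive enzymes of threonine breakdown to glycine, moved in opposite directions. Tdh rose from 33.8 and 35.0 to 55.1 and 60.9 FPKM (0.74, adjusted p = 0.0025), and Gcat fell from 112 and 114 to 56.7 and 65.2 FPKM (-0.88, adjusted p = 0.00174). Gcat has 2 identifiers in the files, and the one with the higher mean is given. Sptlc3, which joins serine to a fatty acyl-CoA in sphingolipid synthesis, and Alas1, which joins glycine to succinyl-CoA in haem synthesis, were higher at 0.55 and 0.54 (adjusted p = 0.0181 and 0.0159). Srr, serine racemase, was lower at -0.53 (adjusted p = 0.0414), a call that median scaling removed (adjusted p = 0.127).

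Purine synthesis, a main consumer of glycine and formyl-folate, held 1 call higher and 5 lower among 12 tested genes, around a median of -0.28 on the log2 scale. That is 8.33% higher and 41.7% lower, against 8.99% and 25.4% of all tested genes, and median scaling left 1 and 1, or 8.33% each against 13.9% and 11.9%. Impdh1 was higher, from 3.63 and 3.52 to 7.15 and 7.85 FPKM (0.89, adjusted p = 0.00273). Impdh2, the other Impdh gene listed, was more abundant, at 41.29 and 41.24 FPKM in ctl and 32.51 and 33.25 FPKM in fl/fl K14-Cre. It was called lower at -0.32 (adjusted p = 0.0257 in limma), and median scaling removed the call (adjusted p = 0.345). Prps2, which makes the ribose donor, was lower at -0.63 (adjusted p = 0.0132). Paics and Adsl, which act in the middle of the ring-building route, were lower at -0.51 and -0.39 (adjusted p = 0.0277 and 0.0495), and neither call held after median scaling (adjusted p = 0.142 and 0.27).

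**Figure D5:**
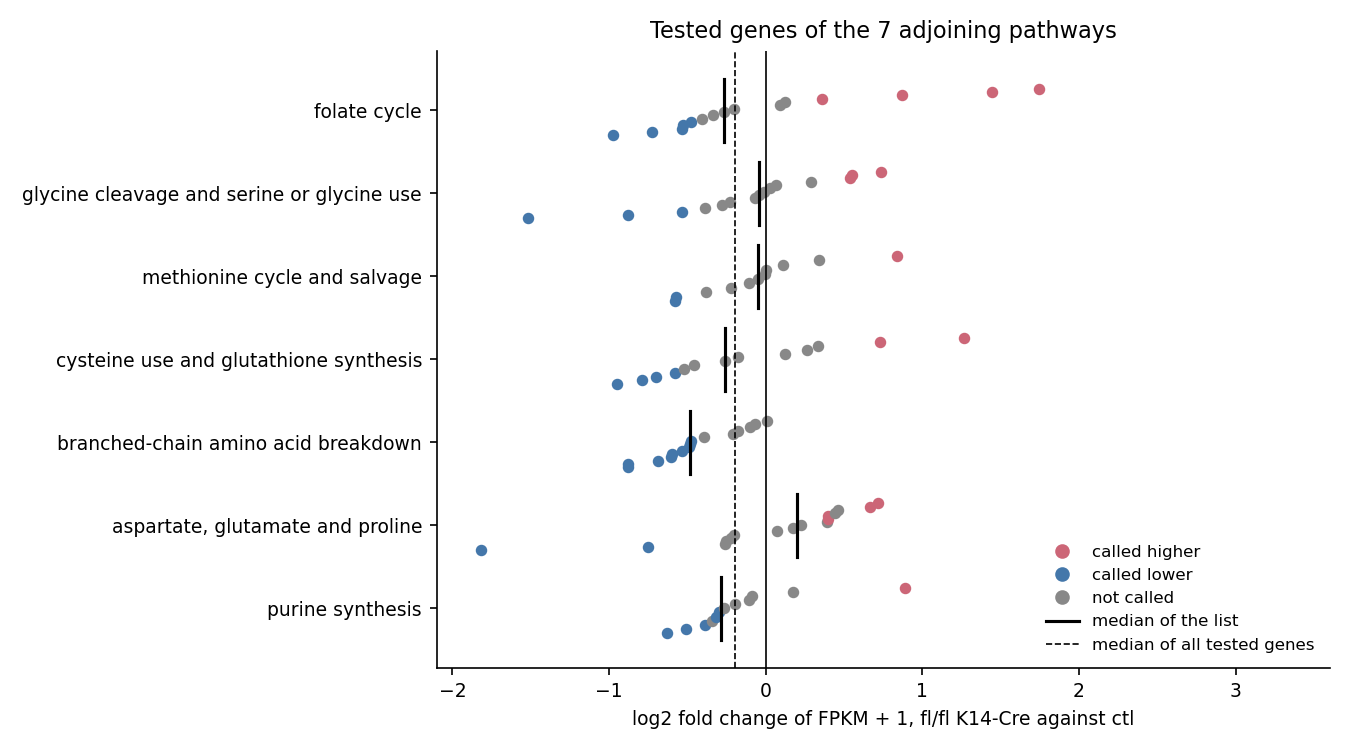
Log2 fold change of FPKM + 1 (x axis) of the 97 tested genes in 7 adjoining pathways, 1 point per gene, coloured by call, with a black bar at each list's median and a dashed line at the median of all tested genes. No gene of branched-chain amino acid breakdown was called higher, and the folate list has calls on both sides.

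Together the 7 adjoining lists held 106 genes, of which 97 were tested, 15 called higher and 30 called lower. Those are 15.5% and 30.9%, against 8.99% and 25.4% of all tested genes. Their median log2 fold change was -0.20, as for all tested genes. After median scaling the split was 21 higher and 18 lower, or 21.6% and 18.6% against 13.9% and 11.9% of all genes. Without ctl replicate 1, 10 were called higher and 9 lower, and without ctl replicate 2, 7 higher and 6 lower, in fits that called far fewer genes of all kinds.

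In ctl epidermis the levels per length ran from Phgdh at 67.2 ± 0.268 FPKM (SD, n = 2) and Psat1 at 61.6 ± 0.536 through Shmt2 at 29.8 ± 1.58 to Cth at 1.17 ± 0.275 and Bcat1 at 0.0238 ± 0.0117. Only Shmt1 and Asns, both at 18.0, could not be ordered there, since their replicates overlapped. In fl/fl K14-Cre epidermis Psat1 at 56.6 ± 3.19 FPKM and Shmt2 at 54.1 ± 9.57 led and overlapped each other. Asns at 41.1 ± 4.97 and Phgdh at 39.9 ± 3.43 followed and also overlapped, so the transcript that ranked first in control epidermis shared the next place in the knockout. Psph overlapped Mthfd2 at the next step, Cbs overlapped both Cth and Bcat1, and Bcat1 at 3.41 ± 0.954 FPKM remained last by its mean.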

How the data were processed

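RNA from the epidermis of 4 pups was analysed, 2 per genotype, with groups and replicate numbers taken from the sample labels. The study gives 2 mice per genotype, so each library was taken as 1 pup. No litter is given per sample. The authors used samples above a stated RNA integrity cutoff, had total RNA sequenced and processed the reads with a workflow of their institution. They deposited 1 table per library. In the deposited tables FPKM relates the fragments of a gene to its length and to the library, TPM brings each library to a common sum, and the coverage signal, as its deposited values behave, is a mean read depth over the gene. The submitters' processing notes name GRCm38. The aligner, annotation release and strandedness are not given in the sources used here.

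FPKM was summed per gene identifier. Protein-coding genes (21921, by GENCODE M21, which holds 54723 of the 54752 identifiers) that passed 0.5 FPKM in any library numbered 13609. Their log2(FPKM + 1) values entered a two-sided limma test (version 3.58.1, R 4.3.3) by lmFit and trended eBayes, and p-values were adjusted over these genes by Benjamini-Hochberg. The filter is the study's and the pseudocount of 1 is not. A fold change on this scale understates the change of low genes. Tables and figures were made with Python 3.11.15, pandas 2.3.3 and matplotlib 3.10.9. The limma script was tested on simulated data. Library size was read from coverage divided by FPKM. Counting intervals are not given, since the tables were used without counts, and the number of pups limits the precision.

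The members and gene lists were chosen with earlier results of these data known. Genes named are the 10 enzymes, their partners in the ratios, Skiv2l, and in each adjoining list the called genes with the 3 largest rises and 3 largest falls. Slc25a32, the glutathione synthesis genes, Bckdha, Dbt, Amt, Gcsh, Dld, Impdh2 and the marker genes were named after their values were seen. No gene was named for a similar pattern, which 4 libraries cannot rank. Where a symbol had 2 identifiers, the one with the higher mean FPKM was used. Shared 75-base stretches were counted on GENCODE M21 transcripts, both strands. Alternatives were a pseudocount of 0.1, other filters, TPM, median and quantile scaling, a replicate block, eBayes without a trend, all biotypes, other thresholds and leaving out each library.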

Additional observations from a re-analysis of the deposited data

How the results depend on the processing

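Over 15 alternative settings Asns, Phgdh, Bcat1 and Cth kept their direction and their call, and no called enzyme changed direction. Of 2 enzymes that were not called, Psat1 turned to a log2 fold change of 0.0882 with median scaling, and Psph ranged from -0.085 to 0.3231 with a library left out, below 0 only without fl/fl K14-Cre replicate 1. The enzymes called lower numbered 3, and 1 with median scaling and 1 with quantile normalization, against 25.4%, 11.9% and 14.1% of all tested genes. At adjusted p under 0.01 the enzymes were called 4 higher and 1 lower, and at a 2-fold minimum 4 higher and 0 lower. Shares of all genes at these stricter thresholds were not counted, so these counts cannot be set against them. Leaving out each library in turn gave 3 to 5 enzymes called higher and 1 to 3 lower, with the fewest called higher without ctl replicate 2. The adjoining genes called numbered 45, and 13 to 49 with a library left out, 7 to 15 of them higher and 6 to 34 lower. The 30 called lower became 18 with median scaling, 17 with quantile normalization and 19 with no filter. Calls lower over all tested genes fell as well, from 25.4% to 11.9%, 14.1% and 13.8% in those settings. A fit with 1 library left out assumes that the lone sample varies like the other group, and the cause of these changes was not tested.

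With the replicate number as a replicate block, 5 enzymes were called higher and 3 lower, against 9.29% and 24.9% of all tested genes. That fit called 46 adjoining genes, 14 higher and 32 lower. No source says that a number marks a shared litter or batch, and the deviations of same-numbered pups had a correlation of -0.08 across tested genes. The fit on coverage per gigabase, chosen after seeing the data, called 5 enzymes higher and 3 lower, against 8.69% and 25.2% of all tested genes. TPM rescales a library by 1 factor, so it cannot change a ratio within a library and checks nothing there. Depth was not counted in reads, so levels under about 0.1 FPKM, such as Bcat1 in ctl, are known only as low.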
